A study of Mus musculus with 12 samples.

Results

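The genes described here are Il18 and 9 other genes of the interleukin-1 (IL-1) family and its processing: the ligands Il1a, Il1b and Il33, the soluble inhibitors Il18bp and Il1rn, the receptor chains Il18r1, Il1r1 and Il1rap, and the protease Casp1. They were chosen by gene name, and all 10 were found among the 54532 genes of the deposited tables. Il18 was selected on its own measured values in these tumors, since it was already known to be higher with treatment, so its differences between diets are given as a description with no test. The other 9 genes came in by family membership. All 10 passed the filter on low counts that left 15504 genes for testing.

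RNA was taken from 12 mammary tumors of MMTV-Neu mice, which carry a Neu (rat Erbb2) transgene behind the mouse mammary tumor virus promoter, active mainly in mammary epithelium. All 12 tumors carried this genotype, so there was no normal tissue to compare with. Mice entered the study once a tumor had reached a fixed small diameter, and 4 tumors each came from mice fed control diet, MSU-42011 diet or bexarotene diet for 10 days, with either compound at 100 mg per kg of diet. Bexarotene is an approved agonist of the retinoid X receptors (RXR), nuclear receptors that bind DNA as partners of other nuclear receptors, and MSU-42011 is a newer RXR agonist known by its code name. The question was how the 2 agonists change gene expression in this model of HER2-positive breast cancer.

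Cytokines of the IL-1 family are alarm signals of innate immunity. IL-1β and IL-18 are made as inactive precursors that caspase-1 cuts inside a protein complex called the inflammasome, whereas IL-1α and IL-33 are active without that step and are released by damaged cells. Each ligand binds a first receptor chain, which is the same one for IL-1α and IL-1β. A shared or dedicated second chain is then recruited, and the adaptor MyD88 passes the signal on to NF-κB. IL-18 is known for raising interferon-γ production by natural killer (NK) and T cells, and soluble proteins such as IL-18 binding protein hold it in check.

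Total counts ran from 16583413 to 25925027 per tumor. Bexarotene tumor 1 stood apart from the rest: its median correlation with the other tumors was 0.915, against 0.961 to 0.972 for the other 11. In that tumor the 8 fibroblast markers summed to 6049 FPKM (a level per gene length and sequencing depth), against 39.4 to 461.8 elsewhere, and the 12 macrophage markers to 1392 against 177.2 to 537.6. Its sums were also the highest for endothelial (152.3 against at most 72.7) and adipocyte markers (6.86 against at most 1.83). The same held for basal and keratinocyte markers (32.6 against at most 20.2) and skeletal muscle markers (195.6 against 114.8 in control tumor 1 and at most 4.41 in the rest). The 6 luminal tumor markers summed to 1467 in it and to 2118 to 2788 in the other tumors, with Epcam and Krt18 leading, while Krt19 stayed at 2.01 FPKM or less outside that tumor, where it was 30 FPKM. Sums of mast cell markers did not pass 1.18 FPKM in any tumor, and those of B cell markers did not pass 1.87. Because these are bulk pieces, a lower value cannot tell fewer cells of a type from less RNA per cell.

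Il18 lies at chr9:50554827-50581840 on the plus strand (coordinates of the deposited table, which match GENCODE M21 on GRCm38). The window around its start in RefSeq (GRCm38.p6) is shown because the rise of Il18 with both agonists is the pattern that brought the gene here. It covers chr9:50554450-50554749 on the plus strand, with the 50 bases from the RefSeq start onward in capitals. That start lies upstream of the one in the deposited table.
Il18: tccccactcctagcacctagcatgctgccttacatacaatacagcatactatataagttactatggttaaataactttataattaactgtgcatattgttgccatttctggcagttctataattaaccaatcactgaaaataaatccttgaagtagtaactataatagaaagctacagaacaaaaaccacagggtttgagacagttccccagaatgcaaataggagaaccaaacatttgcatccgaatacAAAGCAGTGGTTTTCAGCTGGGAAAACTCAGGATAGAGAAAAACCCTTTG
The half-site of nuclear receptors, AGGTCA, was searched on both strands in the 16 start windows of the 10 genes. Each window held 300 bases, from 250 before to 50 after a RefSeq start. Il18 held no match, which says only that these letters are absent from this window. A match was present in 1 of the 16 windows, and in 16.3% of all 32851 windows of the reference table. It lay in the first of 3 start windows of Il1rn, the IL-1 receptor antagonist, at chr2:24336610-24336909 on the plus strand. The AP-1 motif TGANTCA, which reads the same on both strands, was present in that window and in that of Il1a, 2 of 16 windows, against 7.81% of all windows, and did not overlap the half-site. The Il1rn window is shown for these 2 matches, which are in capitals.
Il1rn: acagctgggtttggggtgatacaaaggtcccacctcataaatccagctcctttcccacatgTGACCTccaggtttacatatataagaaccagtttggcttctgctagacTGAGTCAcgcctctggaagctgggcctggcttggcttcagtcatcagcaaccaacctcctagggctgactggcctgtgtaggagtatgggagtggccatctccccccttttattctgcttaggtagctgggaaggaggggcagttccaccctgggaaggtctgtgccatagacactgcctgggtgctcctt

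Il18, the ligand cut by caspase-1, was low in every tumor, with 19 to 30 reads in control tumors, 24 to 68 in MSU-42011 tumors and 47 to 95 in bexarotene tumors. Scaled to sequencing depth with TMM factors (CPM), the control tumors held 1.72, 1.28, 1.02 and 1.29, the MSU-42011 tumors 1.93, 1.45, 2.93 and 2.85, and the bexarotene tumors 3.51, 3.10, 3.003 and 2.88. The 4 bexarotene tumors were all above the 4 control tumors and close to each other, whereas MSU-42011 tumor 3 lay within the bexarotene range, tumor 4 just under it and tumor 2 inside the control range. Means were 1.33 ± 0.292 (SD, n = 4) with control diet, 2.29 ± 0.719 with MSU-42011 and 3.12 ± 0.271 with bexarotene.

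The fitted log2 fold change of Il18 against control was 0.79 (SE 0.29) with MSU-42011, a ratio of 1.73, and 1.23 (SE 0.29) with bexarotene, a ratio of 2.35. MSU-42011 was higher than control in 15 of 16 pairs of tumors and bexarotene in all 16. Between the agonists the log2 difference, MSU-42011 minus bexarotene, was -0.45 (SE 0.28), and 1 of 16 pairs had the MSU-42011 tumor higher. Since Il18 was picked for being higher with treatment, these values carry no test, and the 2 comparisons with control share the same 4 control tumors. Each SE was derived from the F statistic of the fit, so a difference set against its SE is no test either.

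The stroma-rich bexarotene tumor 1 had the highest Il18 value, but not by much. Without it the other 3 bexarotene tumors averaged 2.995 ± 0.110 CPM (SD, n = 3), and the log2 difference from control ran from 1.13 to 1.38 as each of the 12 tumors was left out in turn. For MSU-42011 it ran from 0.65 to 0.95, the top value without MSU-42011 tumor 2. Il18 overlaps 355 bases of Bco2 on the opposite strand, a gene with 3 to 26 reads per tumor, and the strand setting of the counting is not given in the sources used here, so reads in the shared bases could belong to either gene.

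Il18bp, at chr7:102014885-102018690, encodes the soluble protein that captures IL-18. Its CPM was 15.2, 12.8, 9.35 and 11.4 in control tumors, 10.01, 11.8, 15.2 and 11.4 with MSU-42011, and 10.2, 13.1, 15.6 and 12.1 with bexarotene. The 3 groups overlapped, with means of 12.2 ± 2.45, 12.1 ± 2.21 and 12.7 ± 2.22. The log2 difference was -0.01 (95% interval -0.44 to 0.43) for MSU-42011 against control and 0.07 (-0.37 to 0.50) for bexarotene against control, with adjusted p of 1.00 and 0.973 in edgeR's quasi-likelihood test. Its end overlaps 80 bases of Numa1, a gene with 2546 to 5651 reads per tumor.

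Since FPKM is per length, the transcripts of ligand and inhibitor can be set side by side, at the lengths used for the deposited values. These were 787 bases for Il18 (1031 listed) and 1499 for Il18bp (3026 listed), the same in every tumor. The size of the ratio depends on these lengths, but its comparison between tumors does not. The ratio of Il18 to Il18bp FPKM was 0.216, 0.191, 0.207 and 0.216 in control tumors, 0.366, 0.234, 0.366 and 0.474 with MSU-42011, and 0.653, 0.450, 0.368 and 0.454 with bexarotene. The control ratios had a mean of 0.207 and an SD of 0.0121, and all 8 treated tumors lay above them. With only 19 to 30 Il18 reads per control tumor, so small a spread cannot be taken as a stable ratio. The lowest treated ratio, 0.234 in MSU-42011 tumor 2, rested on 24 Il18 reads and lay close to the control maximum of 0.216. This ratio contains Il18 and was computed after its values were seen, so it is a description with no test.

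**Figure D1:**
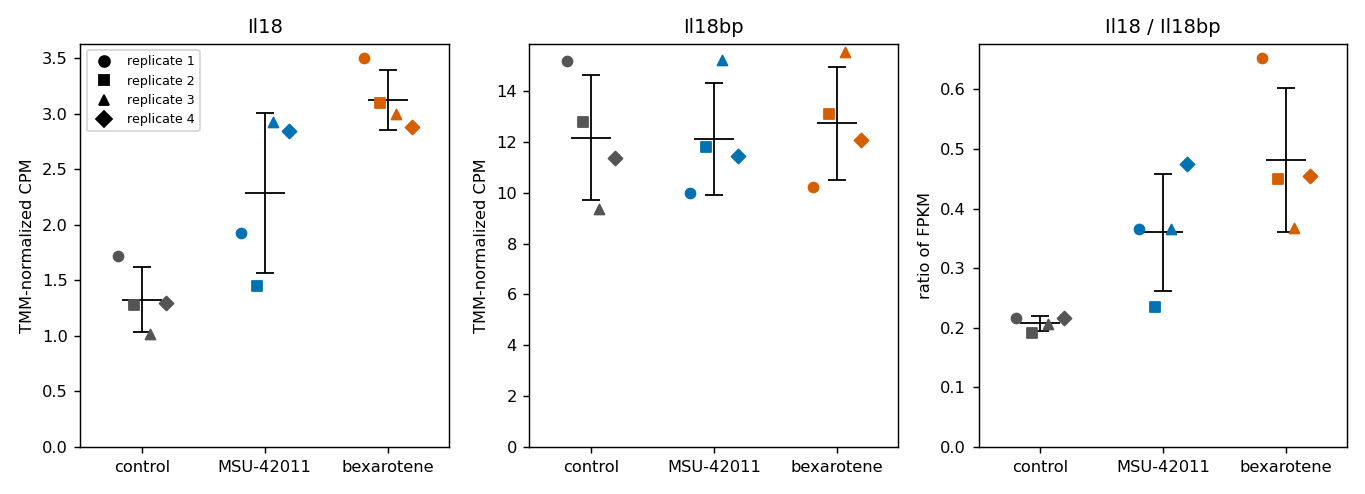
CPM of Il18 and of Il18bp, and the ratio of their FPKM, in each tumor, by diet, with a marker for each replicate and bars for mean and SD (n = 4). Il18 rose from a control mean of 1.33 CPM to 2.29 and 3.12, while the means of Il18bp lay between 12.1 and 12.7.

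Il18r1 encodes the ligand-binding chain of the IL-18 receptor, found on T and NK cells, and lies at chr1:40465552-40500854. Its CPM was 12.9, 37.9, 1.497 and 2.41 in control tumors, 5.72, 1.21, 10.4 and 8.17 with MSU-42011, and 4.02, 1.62, 2.57 and 2.76 with bexarotene. Control tumor 2 stood highest, control tumor 4 lay within the bexarotene range and control tumor 3 below it, so the groups overlapped. The log2 difference of bexarotene from control was -2.31 (95% interval -4.26 to -0.37), with an unadjusted p of 0.0236 and an adjusted p of 0.762 in edgeR, and an exact two-sided permutation p of 0.400. Leaving out control tumor 2 brought it to -1.03.

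For MSU-42011 the log2 difference of Il18r1 from control was -1.10 (adjusted p = 1.00 in edgeR), and without control tumor 2 it was 0.18. The summed FPKM of 10 T and NK cell markers was 12.8 in control tumor 1 and 6.42 in control tumor 2, within the range of 4.74 to 12.8 over all tumors. Ltf, listed among the neutrophil markers and also made by mammary epithelium, was 384 and 405.7 FPKM in control tumors 1 and 2 and at most 104.7 in the other tumors. Csf3r, the next of the neutrophil markers by mean level, peaked at 5.08 FPKM in bexarotene tumor 1 and was at most 2.41 in control tumors. The other markers of that list did not pass 2.01 FPKM in any tumor, so Ltf alone does not speak for the list. The part of any of these markers in the Il18r1 values was not tested. Il18rap, the second chain of the IL-18 receptor, had 38 reads over the 12 tumors and was not tested, and its FPKM did not pass 0.296.

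Casp1, the protease that matures IL-1β and IL-18, lies at chr9:5298517-5307265 and was the most abundant of the 10 genes. Its CPM was 175.2, 82.7, 170.4 and 173.7 in control tumors, 175.1, 153.0, 149.5 and 117.7 with MSU-42011, and 124.4, 160.4, 187.5 and 190.1 with bexarotene. Control tumor 2 was far below the other 3 control tumors and below all treated tumors, and the groups overlapped. The log2 difference was -0.02 (95% interval -0.51 to 0.48) for MSU-42011 and 0.14 (-0.36 to 0.63) for bexarotene against control, with adjusted p of 1.00 and 0.948 in edgeR.

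Casp4, the neighbouring inflammatory caspase at chr9:5308828-5336783, was also lowest in control tumor 2, at 29.6 CPM against 57.9 to 65.0 in the other control tumors. Its treated tumors lay between 42.3 and 63.2 CPM. Pycard, the adaptor that joins sensors to caspase-1, had means of 36.0, 36.5 and 37.8 CPM with control, MSU-42011 and bexarotene diet.

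**Figure D2:**
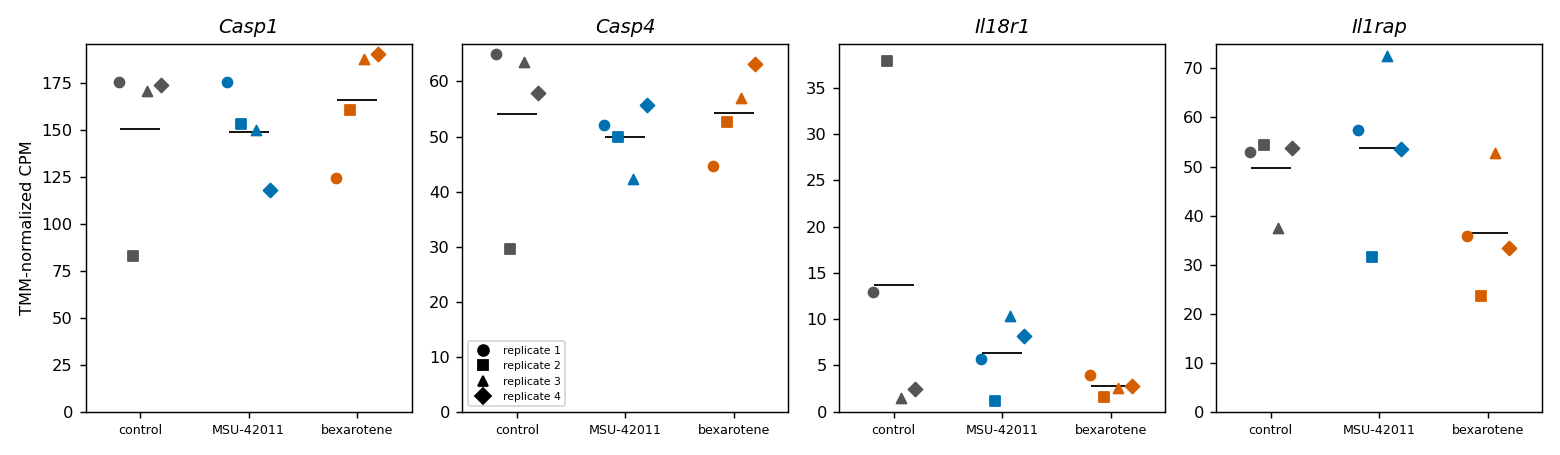
CPM of Casp1, its neighbour Casp4, Il18r1 and Il1rap in each tumor, by diet, with a marker for each replicate and a line at the mean of 4. Control replicate 2 was lowest of the controls for both caspases (82.7 and 29.6 CPM) and highest for Il18r1 (37.9 CPM).

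Il1a and Il1b encode the 2 agonist ligands of the IL-1 receptor and lie on chromosome 2, at chr2:129299610-129309972 and chr2:129364570-129371139. Il1b CPM was 1.07, 4.07, 0.0535 and 0.560 in control tumors, 0.330, 0.848, 0.542 and 0.419 with MSU-42011, and 3.91, 2.43, 0.194 and 0.920 with bexarotene. Control tumor 2 and bexarotene tumors 1 and 2 were high, control tumor 3 held 1 read, and the groups overlapped. The log2 difference was -1.43 (95% interval -3.59 to 0.72) for MSU-42011 and 0.38 (-1.65 to 2.41) for bexarotene against control, and neither passed (adjusted p = 1.00 and 0.966 in edgeR).

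The MSU-42011 difference of Il1b fell to -0.07 without control tumor 2. Il1a had CPM from 0.481 to 2.32 in control tumors, 0.704 to 2.06 with MSU-42011 and 0.812 to 1.26 with bexarotene, and the groups overlapped. Its log2 differences from control were -0.27 (-1.27 to 0.73) and -0.46 (-1.46 to 0.54). Both genes overlap an antisense gene, Gm14023 for Il1a with 170 reads in all and Il1bos for Il1b with 93. Since the strand setting of the counting is not given, reads in shared bases could belong to either gene.

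Il1rn encodes the antagonist that occupies the IL-1 receptor without signalling, and lies at chr2:24336853-24351494. Its CPM was 2.14, 2.56, 0.855 and 1.03 in control tumors, 1.16, 1.21, 1.41 and 0.587 with MSU-42011, and 4.02, 0.239, 0.872 and 0.736 with bexarotene. Bexarotene tumor 1 was highest and bexarotene tumor 2 lowest of all 12. The log2 difference from control was -0.60 (95% interval -2.12 to 0.93) with MSU-42011 and -0.14 (-1.64 to 1.35) with bexarotene, and the latter became -1.42 without bexarotene tumor 1.

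Il1r1, the signalling receptor of both IL-1 ligands, lies at chr1:40225080-40317257. Its CPM was 6.29, 8.995, 3.47 and 2.84 in control tumors, 5.11, 3.15, 7.26 and 4.32 with MSU-42011, and 34.7, 6.68, 3.29 and 1.72 with bexarotene. Bexarotene tumor 1 held far more than any other, and the other 3 bexarotene tumors lay between 1.72 and 6.68 CPM, against 2.84 to 8.995 in control tumors. The log2 difference of bexarotene from control was 1.11 (95% interval -0.54 to 2.76; adjusted p = 0.880 in edgeR) and turned to -0.46 without that tumor. For MSU-42011 it was -0.12 (-1.77 to 1.53).

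Il1rap, the second chain shared by the receptors of IL-1, IL-33 and IL-36, lies at chr16:26581704-26730117. Its CPM was 52.9, 54.4, 37.5 and 53.7 in control tumors, 57.5, 31.5, 72.5 and 53.6 with MSU-42011, and 35.9, 23.6, 52.7 and 33.5 with bexarotene. Of the 16 pairs of a bexarotene and a control tumor 1 had the bexarotene tumor higher, so the groups overlapped by bexarotene tumor 3 and control tumor 3. The log2 difference of bexarotene from control was -0.45 (95% interval -1.02 to 0.13), with an adjusted p of 0.856 in edgeR and an exact two-sided permutation p of 0.0571, where 4 tumors against 4 cannot go below 0.0286. MSU-42011 differed from control by 0.12 (-0.46 to 0.69).

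Il33 encodes an alarm cytokine stored in the nucleus of stromal and barrier cells, and lies at chr19:29925114-29960718. Its CPM was 2.08, 0, 1.02 and 0.431 in control tumors, 0, 0.545, 0.0542 and 0.0838 with MSU-42011, and 106.8, 7.63, 0.0969 and 0.368 with bexarotene. Bexarotene tumors 1 and 2 were above all other tumors, while bexarotene tumors 3 and 4 had 2 and 6 reads and lay within the control range. The log2 difference of bexarotene from control was 5.06 (95% interval 1.28 to 8.84), with an unadjusted p of 0.0128, an adjusted p of 0.762 in edgeR and 0.339 in DESeq2, and an exact two-sided permutation p of 0.343.

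The same 2 tumors held the highest sums of fibroblast markers, 6049 and 461.8 FPKM against 39.4 to 240.3 in the other 10, and the part of this in the Il33 values was not tested. Without bexarotene tumor 1 the log2 difference of Il33 was 1.64, and the mean of the other 3 bexarotene tumors was 2.70 ± 4.27 CPM (SD, n = 3). Il1rl1, the receptor chain for IL-33, was at 2.99 CPM in bexarotene tumor 1 and at most 0.429 in the other 11.

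**Figure D3:**
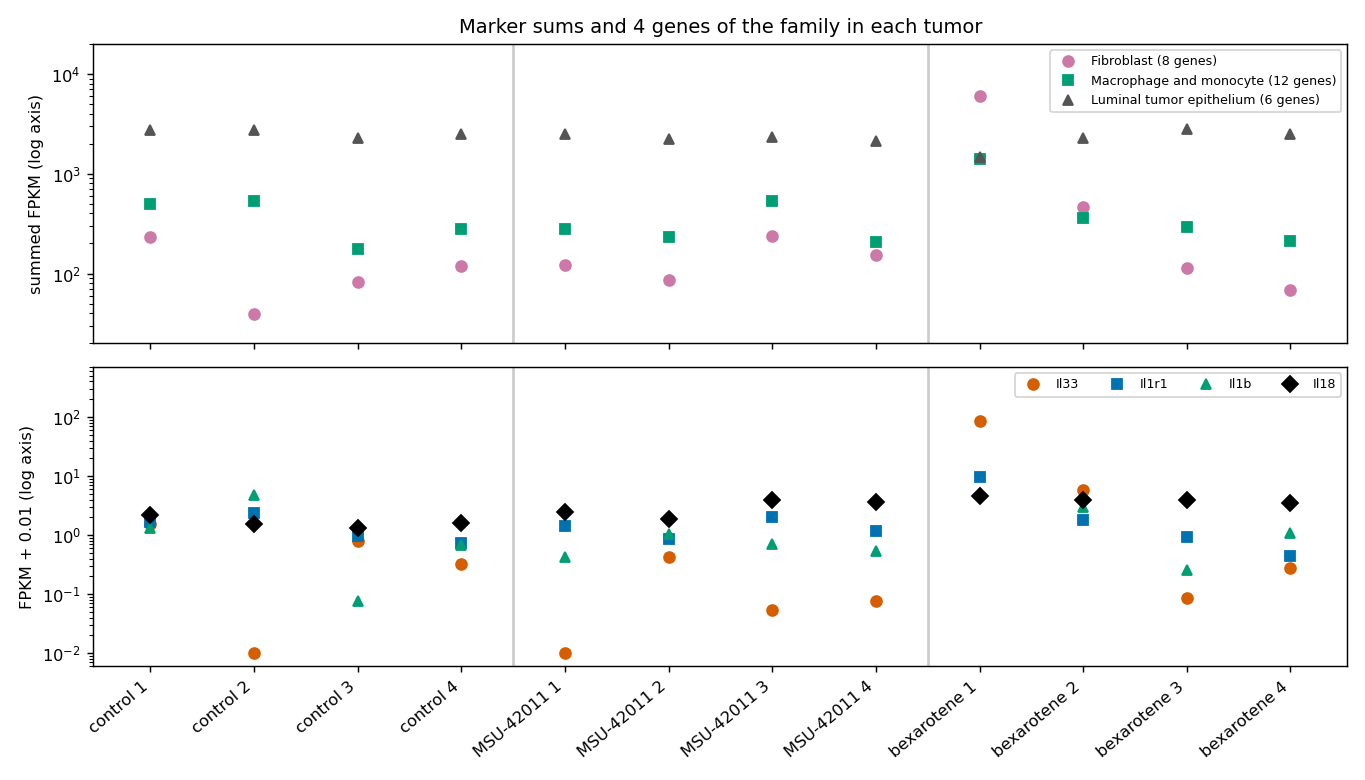
Summed FPKM of 3 marker lists (top, log axis) and FPKM + 0.01 of Il33, Il1r1, Il1b and Il18 (bottom, log axis) in each of the 12 tumors, grouped by diet. Il33 and the fibroblast sum were highest in bexarotene tumor 1 (85.2 and 6049 FPKM) and next in bexarotene tumor 2 (5.86 and 461.8 FPKM), while Il18 stayed between 1.30 and 4.66 FPKM.

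Over the 9 genes other than Il18, edgeR called 0 in each of the 3 comparisons at an adjusted p under 0.05, as it did over all 15504 genes (0%). At an unadjusted p under 0.05 it had 0 of 9 for MSU-42011 against control, where 1.99% of all genes were under that value. It had 2 of 9 for bexarotene against control, Il18r1 and Il33, with 6.44% of all genes. For MSU-42011 against bexarotene it had 1 of 9, Il33, with 3.95% of all genes. DESeq2 called none of the 9 in any comparison, and over its own tested genes it called 0.00338%, 0.0356% and 0.153% in the same order.

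None of the 9 had all 4 tumors of one diet above or below all 4 of another, which 1.97% of all tested genes had between MSU-42011 and control, 2.03% between bexarotene and control, and 1.17% between the agonists. Il18 did so for bexarotene against control, which its selection makes a description. The median log2 difference of the 9 genes was -0.27, 0.07 and -0.15 in the same order, beside 0.00, 0.03 and -0.02 over all tested genes. With MSU-42011, 8 of the 9 had a negative log2 difference from control, and with bexarotene 4 of the 9, while 50.4% and 55.3% of all tested genes were higher. Without control tumor 2 the 8 became 4.

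The agonists were given at the same dose and for the same time, so the 9 genes were compared between them in 9 tests within the fit over all genes. Intervals of the log2 difference, MSU-42011 minus bexarotene, were narrow for Il18bp (-0.51 to 0.36) and Casp1 (-0.65 to 0.34). For Il1rap the difference was 0.56 (-0.01 to 1.14), with an unadjusted p of 0.0541 and an adjusted p of 0.997 in edgeR. For Il33 it was -7.43 (-11.89 to -2.98), from 12 reads in the 4 MSU-42011 tumors, with an adjusted p of 0.997 in edgeR and 0.0525 in DESeq2, and it was -4.01 without bexarotene tumor 1.

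The remaining intervals between the agonists were wide, for Il1b from -3.97 to 0.34, for Il18r1 from -0.69 to 3.11, for Il1r1 from -2.88 to 0.43, for Il1rn from -1.97 to 1.07 and for Il1a from -0.82 to 1.20. They leave room for differences of more than 2-fold, so the data do not show that the agonists act alike on these genes.

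**Figure D4:**
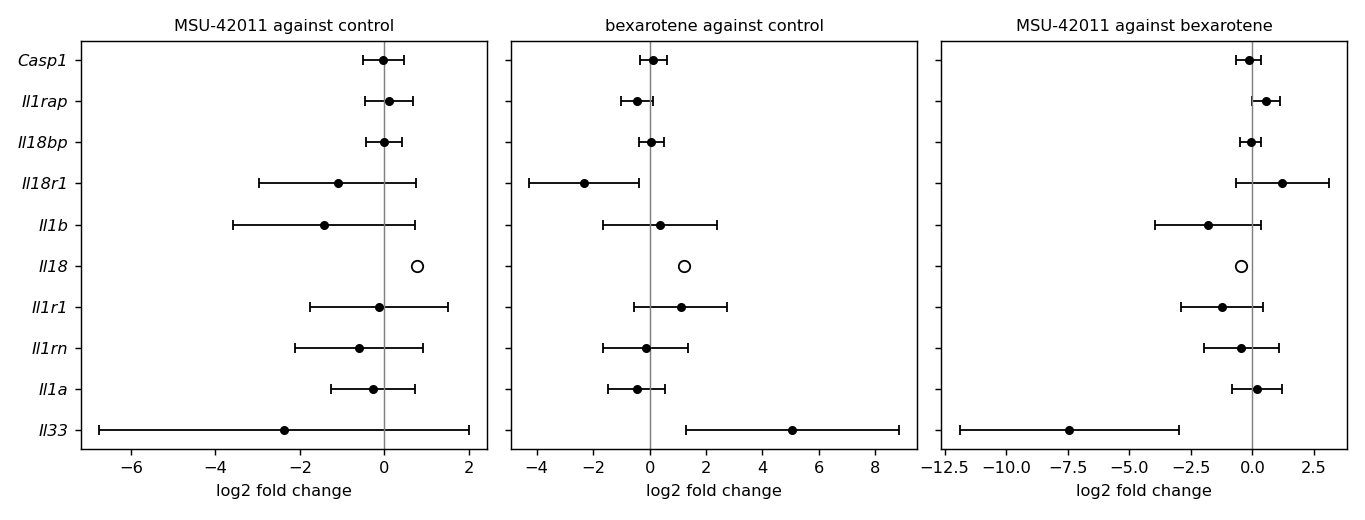
Fitted log2 fold change of each gene in the 3 comparisons (separate horizontal scales), with 95% intervals from edgeR for the 9 tested genes. Il18 is an open circle without interval, since it was selected on these values, and it lies at 0.79, 1.23 and -0.45. Intervals of Il33 and Il18r1 exclude 0 for bexarotene against control, but neither passed after adjustment.

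Per length, the order of mean levels in control tumors was Casp1 (98.4 ± 30.5 FPKM, SD, n = 4), Il1rap (17.1 ± 2.47), Il18bp (7.91 ± 1.55), Il18r1 (5.22 ± 6.40), Il1b (1.71 ± 2.13), Il18 (1.64 ± 0.356), Il1r1 (1.42 ± 0.720), Il1rn (1.10 ± 0.544), Il1a (0.727 ± 0.380) and Il33 (0.663 ± 0.675). At the lengths used for the deposited FPKM, only Casp1 and Il1rap stood clear of the next gene in all 4 control tumors. These lengths were shorter than the listed gene lengths for all but Casp1 and Il1a. For Il1rap 2828 bases were used and 11360 listed, and for Il18bp 1499 and 3026. The order, and whether Il1rap stands clear, can depend on this choice and was not recomputed. From Il18bp downward every gene's range overlapped that of the gene after it. Casp1 transcript was thus far more abundant per length than either ligand it processes.

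**Figure D5:**
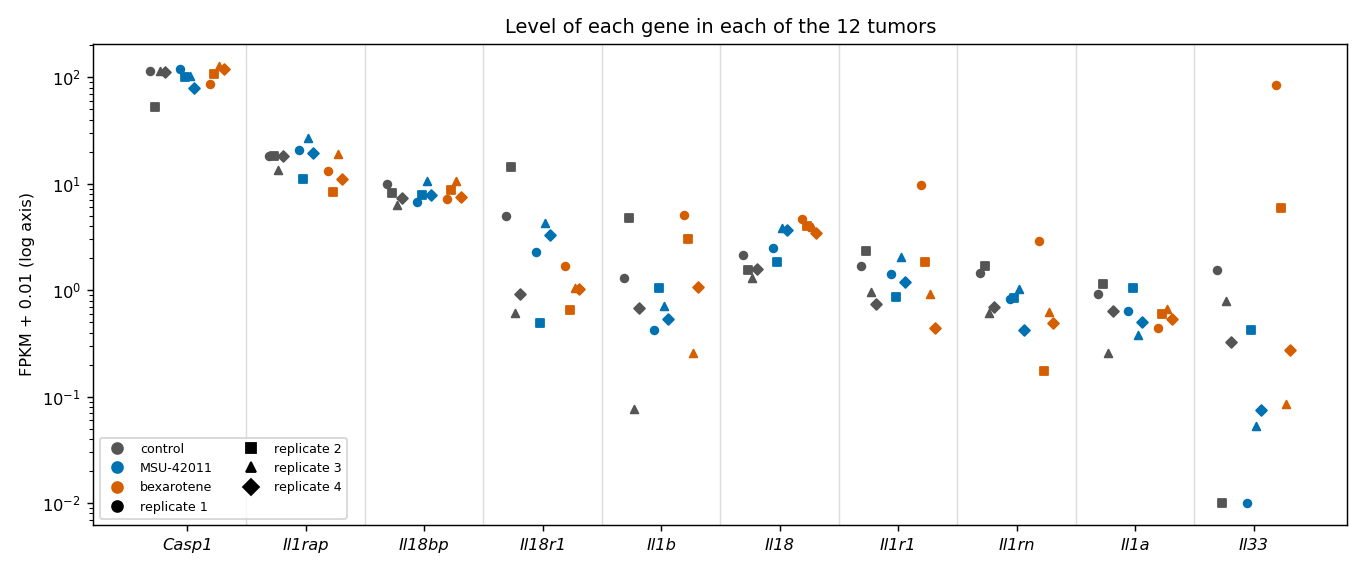
FPKM + 0.01 (log axis) of each gene in each tumor, ordered by the mean in control tumors, with colour for diet and marker for replicate. Casp1 lay between 52.7 and 128.4 FPKM in all tumors, and Il33 spanned the widest range, from 0 to 85.2 FPKM.

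The other genes of the family, a list of 12, were mostly silent. Sigirr, an inhibitory receptor, was steady with means of 43.0, 40.2 and 43.2 CPM, and Il1rl2, the IL-36 receptor, had means of 16.4, 12.7 and 14.6 CPM. Il36rn, listed as Il1f5, had 1.99, 1.75 and 1.25 CPM. These were the 3 that passed the filter, and edgeR called none of them (lowest adjusted p 0.858) and none had an unadjusted p under 0.05. Il1rapl1, Il1rapl2 and Il36g, listed as Il1f9, had no read in any tumor, Il36a (Il1f6) had 4 reads and Il36b (Il1f8) had 1.

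Bexarotene tumor 1 held most of the reads of 2 more. Il1r2, the decoy receptor of IL-1, had 5.06 FPKM there and at most 0.214 elsewhere, and Il1f10, which encodes IL-38, 2.51 against at most 0.401. The 6 receptor genes Il1r2, Il1r1, Il1rl2, Il1rl1, Il18r1 and Il18rap follow each other on chromosome 1, between 40074079 and 40551705. Despite this, their highest tumor was not shared: Il18r1 peaked in control tumor 2 and the other 5 in bexarotene tumor 1.

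Of the 23 genes on a list of inflammasome sensors, adaptors and release factors, 19 were tested. None was called by edgeR or DESeq2, and the number with an unadjusted p under 0.05 was 1 with MSU-42011 and 0 with bexarotene against control, and 1 between the agonists, beside 1.99%, 6.44% and 3.95% of all tested genes. That gene was Txnip, an arrestin-like protein that binds thioredoxin and NLRP3. It had 632.4, 754.2, 542.3 and 612.1 CPM in control tumors, 1038, 979.6, 802.1 and 768.1 with MSU-42011, and 693.8, 645.3, 762.4 and 697.3 with bexarotene. The 4 MSU-42011 tumors lay above all others. Over all tested genes, 1.97% had the MSU-42011 tumors all above or all below the controls, and 1.17% all above or all below the bexarotene tumors. Txnip was named for the smallest p of its list, which makes separation likely, and 1 of the 19 tested genes was separated in each of these comparisons. Txnip had a log2 difference from control of 0.50 (95% interval 0.20 to 0.80), an unadjusted p of 0.00370 and an adjusted p of 1.00 in edgeR.

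Nlrp3 and Aim2, sensors that start inflammasome assembly, were highest in bexarotene tumor 1, at 6.90 and 6.09 CPM, and at most 2.39 and 2.75 in the others. Gsdmd, which forms the pore through which the cut cytokines leave, held 20.5 CPM in that tumor and 2.36 to 5.74 in the other 11. Their log2 differences of bexarotene from control were 1.28 (-0.07 to 2.62), 0.94 (-0.05 to 1.94) and 1.04 (-0.16 to 2.24). Without that tumor the bexarotene means were 1.28, 1.997 and 4.19 CPM (n = 3), beside control means of 1.11, 1.57 and 4.03. The median over the 19 genes was 0.02, 0.21 and -0.26 in the 3 comparisons, and 0.02, 0.13 and -0.02 without bexarotene tumor 1.

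All 26 genes of the signalling list were tested, none was called by edgeR or DESeq2, and their medians were -0.03, -0.01 and 0.01. At an unadjusted p under 0.05 there were 1, 1 and 2 genes, Tab1 for MSU-42011 against control, Nfkbiz for bexarotene against control, and both between the agonists, beside 1.99%, 6.44% and 3.95% of all tested genes. Tab1, an activator of the kinase TAK1, had 44.2 to 51.4 CPM in control and 34.2 to 43.4 in MSU-42011 tumors, which did not overlap (log2 difference -0.28, adjusted p = 1.00 in edgeR). Nfkbiz, a nuclear cofactor of NF-κB, had 15.3 to 19.4 CPM in control and 19.6 to 30.7 in bexarotene tumors, again without overlap (0.44, adjusted p = 0.762 in edgeR). Such separation was seen in 1.97% of all tested genes for MSU-42011 and 2.03% for bexarotene against control. Both genes were named for their small p in these data, which makes separation likely, and 1 of the 26 listed genes was separated in each of these comparisons. Chuk, a kinase subunit upstream of NF-κB, had means of 33.1, 40.3 and 41.0 CPM, and Myd88, the shared adaptor, of 41.6, 35.7 and 34.8.

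Of 24 genes that IL-1 or IL-18 is known to induce, 13 were tested, and edgeR and DESeq2 again called none. Their median log2 difference from control was -0.16 with MSU-42011 and 0.54 with bexarotene, and -0.48 for MSU-42011 minus bexarotene. Without bexarotene tumor 1 the last 2 were 0.27 and -0.10, and the first was -0.0056 without control tumor 1 and -0.45 without control tumor 4. At an unadjusted p under 0.05 there were 2, 5 and 4 genes in these comparisons, beside 1.99%, 6.44% and 3.95% of all tested genes. They were Lcn2 and Mmp13 lower with MSU-42011, Ccl2, Mmp3, Ptges and Lif higher and Lcn2 lower with bexarotene, and the same Ccl2, Mmp3, Ptges and Lif lower with MSU-42011 than with bexarotene. Lcn2, which binds iron carriers of bacteria, had 10380 CPM in control tumor 2 and 2034 to 5027 in the other 11 tumors. Ccl2, a chemokine that draws monocytes, had 34.9 CPM in bexarotene tumor 1 and 0.690 to 3.63 in the others. Mmp3, a matrix protease, had 27.4 CPM in that tumor and at most 2.53 elsewhere, and Ptges, which makes prostaglandin E2, 14.3 against at most 3.53. Lif had 17.2 CPM in that tumor, and the other 3 bexarotene tumors averaged 2.71 CPM, beside a control mean of 1.86. Mmp13 rested on 6 to 15 reads per MSU-42011 tumor and 16 to 32 per control tumor.

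Without bexarotene tumor 1 the log2 differences of bexarotene from control fell from 2.34 to 0.45 for Ccl2, from 3.64 to 0.57 for Mmp3 and from 1.69 to 0.29 for Ptges. Ifng, the interferon-γ gene for whose induction IL-18 is named, was at or near the limit of detection: 6 tumors had no read, and the highest value was 0.356 CPM, in control tumor 1. A difference in Ifng was not detectable at this depth.

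The 5 tested genes most like Il18, by Pearson's r of log2 CPM over the 12 tumors, were Adamts8 (0.931), Dagla (0.871), Hoxb8 (0.861), Mkrn3 (0.850) and Mypop (0.827). Over all tested genes the median r with Il18 was 0.0144 and the 99th percentile 0.655. These values are a description, since the points share libraries and depth and the genes were picked as the highest. Without bexarotene tumor 1 they were 0.964, 0.872, 0.846, 0.821 and 0.806. Without control tumors 2 and 3, the 2 farthest from the median of Il18, they were 0.893, 0.917, 0.749, 0.767 and 0.856. Hoxb8 and Mkrn3 held few reads, 240 and 216 over the 12 tumors.

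Adamts8 encodes a secreted metalloprotease with thrombospondin repeats, and lies on the same chromosome as Il18, at chr9:30942562-30963838. It had 1.60 to 3.26 CPM in control tumors, 2.30 to 8.34 with MSU-42011 and 6.92 to 21.1 with bexarotene. Since it was picked for its correlation with Il18 in these tumors, a like order of groups follows from that choice. Dagla, which makes the endocannabinoid 2-arachidonoylglycerol, had 8.31 to 10.3, 9.82 to 14.5 and 13.2 to 15.3 CPM. Among the 9 other genes of the family, r with Il18 ran from -0.24 for Il1a to 0.33 for Il18bp, and without bexarotene tumor 1 from -0.51 for Il1rn to 0.52 for Il18bp.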

How the data were processed

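The authors prepared poly(A)-enriched libraries from 12 tumors. The submitters' processing notes name STAR 2.6.1d, featureCounts 1.5.0-p3 and DESeq2, and the genome build is not given in the sources used here. The authors deposited raw read counts per gene and FPKM values, and their own tables of comparisons were not used. Coordinates matched GENCODE M21 on GRCm38 for 98.3% of 54409 shared genes and for all 10 genes described. The genes and the pathway and marker lists were chosen with earlier results of these data known.

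Counts were filtered with filterByExpr, normalized with TMM and tested with the quasi-likelihood test of edgeR 4.0.16 in 1 model of 3 groups, with Benjamini-Hochberg adjustment over all 15504 tested genes and a threshold of 0.05. Single genes were also given a two-sided exact permutation test. DESeq2 1.42.0 and limma 3.58.1 on log2(FPKM + 1) or log2(FPKM + 0.1), other filters and normalizations, a replicate block and leaving out each tumor were alternatives. Scripts were tested on simulated data. Besides the 10 genes and the other IL-1 family genes, the text names up to 3 genes per pathway list with the smallest unadjusted p in any comparison, with Pycard, Nlrp3, Casp4, Gsdmd, Myd88 and Ifng, the 5 genes most correlated with Il18, and the leading markers of a cell type. Krt19, Lcn2, Mmp13, Lif and the genes overlapping a described gene were named after their values were seen. Low counts limit precision: 3 reads were taken as the floor. The labels name separate tumors, so p-values measure the spread between these tumors. Counts between tumors of a group differed far beyond sampling noise (chi-square per degree of freedom 24.5 to 171.7), so none was a duplicate.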

Additional observations from a re-analysis of the deposited data

Results flagged for a closer look

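In groups of 4 tumors, a tumor was marked when its gap to the nearest other, divided by the range of the group, passed Dixon's 95% critical value. Of 66 groups over 22 genes 11 passed. The chance rate of about 1 in 20 holds for normally distributed values in independent groups. Here the values were untransformed CPM, some from few reads, the groups shared the same 12 tumors, and part of the genes were picked by their p. The count of 11 therefore cannot be read as an excess over chance. Bexarotene tumor 1, the stroma-rich one, accounted for 6: Il33 (ratio 0.929, 106.8 CPM against at most 7.63), Il1r1 (0.849, 34.7 against at most 6.68), Il1rn (0.833, 4.02 against at most 0.872), Aim2 (0.939, 6.09 against at most 2.15), Mmp3 (0.908, 27.4 against at most 2.53) and Ccl2 (0.946, 34.9 against at most 3.63). In that tumor 8 of 8 fibroblast markers and 11 of 12 macrophage markers had their highest value. So did 6 of 6 endothelial, 4 of 4 adipocyte, 4 of 4 skeletal muscle and 4 of 10 basal and keratinocyte markers. The part of these tissues in the 6 genes was not tested.

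The other 5 came from 3 tumors. Control tumor 2 was low in Casp1 (ratio 0.948, 82.7 CPM against 170.4 to 175.2), and control tumor 3 was low in Il1rap (0.911, 37.5 against 52.9 to 54.4). MSU-42011 tumor 2 was low in Il1rl2 (0.962, 4.97 against 15.0 to 15.4) and was the highest of its group in Il33 (0.846, 9 reads against at most 2) and in Mmp3 (1, the only tumor of its group with reads).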

How the results depend on the processing

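None of the 9 tested genes was called under any alternative that tested it. A filter of at least 10 counts in every tumor left 5 of the 9. Fits of 2 groups alone left 8 in the comparisons of MSU-42011 with control and with bexarotene. Il18 kept its direction in all alternatives (log2 difference from control 0.56 to 0.95 with MSU-42011 and 0.92 to 1.38 with bexarotene). Over all genes, edgeR's 0 calls became 1, 6 and 25 with DESeq2 for MSU-42011 against control, bexarotene against control and MSU-42011 against bexarotene, and 1 for bexarotene against control with limma on log2(FPKM + 0.1). Leaving out 1 tumor gave 0 to 1 call for bexarotene against control, the 1 without MSU-42011 tumor 2, and 0 otherwise. The cause was not tested.

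Differences that had not passed the test changed sign for 8 of the 9 genes, all but Il33, and some were over 2-fold in size. With limma the MSU-42011 difference from control became 0.054 and 0.060 for Il18bp and 0.095 and 0.096 for Casp1 with pseudocounts of 1 and 0.1, and 0.018 for Il1r1 with 0.1, and Il1rn between the agonists became 0.14 with 0.1. Leaving out 1 tumor gave these ranges for MSU-42011 against control: Il18bp -0.14 to 0.12, Il18r1 -1.48 to 0.18, Il1a -0.63 to 0.028, Il1r1 -0.36 to 0.24, Il1rap -0.062 to 0.30 and Casp1 -0.22 to 0.079. For bexarotene against control they were Il18bp -0.046 to 0.19, Il1b -0.28 to 1.73, Il1rn -1.42 to 0.21, Il1r1 -0.46 to 1.46 and Casp1 -0.068 to 0.25. Between the agonists they were Il18bp -0.20 to 0.039, Il1a -0.17 to 0.38, Il1rn -0.80 to 0.82 and Il1r1 -1.58 to 0.34. Control tumor 2 and bexarotene tumor 1 set most of the widest of these.

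Same-numbered tumors of different groups did not deviate together (correlations -0.352 to 0.349 over 12 pairs, 4 above 0.1, and 5 of 12 tumors closest to their own number), so the number was not taken as a pairing. With a replicate block edgeR called 0 genes in each comparison, the MSU-42011 difference became 0.091 for Il1r1 and 0.023 for Casp1, and the call of none of the 9 genes changed. With 4 tumors per group and Il18, Il1a, Il1b and Il33 often under 50 reads, precision was low. Differences that lie within the interval given for a tested gene could not be told from each other, and Il18 was given no interval. Even Il18r1 and Il33, whose intervals for bexarotene against control exclude 0, were not called after adjustment.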
